A study of Mus musculus with 8 samples.

Results

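The constitutive proteasome genes were described across 8 microarrays of mouse bone marrow progenitors. They were taken as all genes whose array symbol begins with Psma, Psmb, Psmc or Psmd followed by a number, leaving out the inducible or thymic beta subunits Psmb8, Psmb9, Psmb10 and Psmb11. This gave 35 genes of the 19938 measured. Of these, 20 belong to the regulatory cap (Psmc and Psmd genes) and 15 to the core particle (Psma and Psmb genes). Where a gene had several probe sets, the one with the highest mean over all arrays stood for it.

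RNA came from flow-sorted KLS cells (marrow cells that lack lineage markers and carry c-Kit and Sca-1, among them blood stem cells and multipotent progenitors) and from MEP cells (megakaryocyte-erythroid progenitors). The groups were KLS cells of TG mice, KLS cells of WT mice, MEP cells of TG mice and MEP cells of WT mice, with 2 arrays each. TG mice carry the genotype label ∆Hmga2, WT mice are wild type, and all are C57BL/6J. Each array held an independent RNA preparation pooled from 4 or 6 mice. The labels used here name no age, transgene promoter or founder line.

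The proteasome degrades proteins that carry ubiquitin chains. In its core particle, alpha subunits form the outer rings and gate the entry pore, and beta subunits form the inner rings, where Psmb5, Psmb6 and Psmb7 cut the substrate. The regulatory cap binds core ends: its base holds the Psmc ATPases that unfold substrates together with the scaffold subunits Psmd1 and Psmd2 and the ubiquitin receptor Psmd4, and its lid holds the deubiquitinase Psmd14. In animal cells, transcription factors of the NRF1 family raise many proteasome genes together, through antioxidant response elements, when proteasome activity is short. Blood stem cells are known for slow protein synthesis, and red cell precursors for large-scale protein turnover as they mature.

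By role, the members comprised 9 base subunits, 8 lid subunits, 3 Psmd genes that encode assembly factors of the cap, 8 alpha subunits and 7 beta subunits. The set's name does not hold for these 3: Psmd5, Psmd9 and Psmd10 are chaperones that bind base ATPases during cap assembly and leave the finished particle. Psma8 encodes a testis-specific alpha subunit. It was the only member outside the brightest 30% of measured genes, while the other 34 lay within it.

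Promoters are shown because the cap and core genes were compared as groups, and their start regions could be read. RefSeq start regions on GRCm38.p6, from 250 bases before to 50 bases after each start, matched 28 of the 35 members. Psmd3, Psmd7, Psmc3, Psma8, Psmb1, Psmb2 and Psmb7 had none. On either strand, the letters CCGGAAG, the core of an ETS-family site, occurred in 9 of 17 cap genes (52.9%) and in 1 of 11 core genes (9.09%). They occurred in 2683 of 27025 genes of the same table (9.93%). No motif share was taken over the brightest 30% of measured genes, where 34 of the 35 members lay. The windows below run 5′ to 3′ on the strand of the match with 10 bases on each side, and capitals mark CCGGAAG:
Psmc1, chr12:100110164-100110190, minus strand: atcgccaccgCCGGAAGtgcatccacc
Psmc2, chr5:21785181-21785207, minus strand: gagccccatcCCGGAAGtgctcactgg
Psmc6, chr14:45329714-45329740, plus strand: ggcgggccagCCGGAAGgggcggagcc
Psmd2, chr16:20651616-20651642, minus strand: gtcctccagaCCGGAAGcgccctgcgg
Psmd4, chr3:95042723-95042749, minus strand: tacagctgttCCGGAAGctgctgcgaa
Psmd6, chr14:14120974-14121000, minus strand: agagacgcgaCCGGAAGtcagactggc
Psmd11, chr11:80428594-80428620, minus strand: aaacacacacCCGGAAGacccgccctc
Psmd12, chr11:107479501-107479527, minus strand: gtcactcgcaCCGGAAGtcgcccgctc
Psmd13, chr7:140882378-140882404, plus strand: gcccgcggtgCCGGAAGtgagcgagca
Psma6, chr12:55398813-55398839, plus strand: cgccggtgctCCGGAAGcagtagccat

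All cap matches lay before the gene's start, with centres 3 to 122 bases away from it. Psmc2 held a further match at another start, and Psma6 held 3 in all. The antioxidant response element, searched as TGACNNNGC on both strands, was found in 3 of 17 cap genes (Psmc6, Psmd9 and Psmd12) and in 2 of 11 core genes (Psmb5 and Psmb6), and in 14.0% of all genes. The core matches lie in a pair of catalytic genes, and are shown for that reason with the element in capitals:
Psmb5, chr14:54618024-54618052, minus strand: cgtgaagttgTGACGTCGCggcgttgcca
Psmb6, chr11:70525338-70525366, plus strand: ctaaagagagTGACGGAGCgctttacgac

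The CCAAT box, searched on both strands, was in 5 of 17 cap genes, 6 of 11 core genes and 41.1% of all genes. Of the 13 ETS matches, 0 overlapped another searched motif. A match describes these letters only, and no binding was measured. The KLS minus MEP difference did not separate cap genes by the ETS letters: its median was -0.20 log2 units in the 9 cap genes with CCGGAAG and -0.19 in the 8 without.

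Before the results, the arrays were checked against their labels. The stem and multipotent progenitor markers (6 of 8 listed genes measured) averaged 8.70 to 9.01 log2 units on KLS arrays and 6.75 to 7.67 on MEP arrays, and did not overlap. The erythroid markers (9 of 10) averaged 8.70 to 9.01 on KLS arrays and 8.97 to 9.33 on MEP arrays. These overlapped over both genotypes, but not within TG or within WT arrays, where KLS was lower. Their median KLS minus MEP difference was -0.24, and 2 were called lower in KLS cells, Tfrc at -0.56 and Rhd at -0.77. Zfpm1 alone was above 0, at 0.12. The megakaryocyte markers (5 of 6) averaged 6.67 to 6.81 on KLS arrays and 6.10 to 6.48 on MEP arrays. Their mean was thus higher on KLS arrays, against the MEP label, with a median difference of 0.27 and 0 genes called. The genes were not alike, with Pf4 at 1.57, Ppbp at 0.59, Itga2b at 0.27, Gp9 at 0.11 and Vwf at -0.16. The array WT MEP 1 stood apart: its lymphoid mean was 7.75, against 6.08 to 6.33 on the other MEP arrays, its granulocyte mean 9.73 against 8.35 to 9.07, and its stem mean 7.67 against 6.75 to 6.85. Between cell types, the granulocyte markers (10 of 10) averaged 10.42 to 10.91 on KLS arrays and 8.35 to 9.73 on MEP arrays. Of these, 6 were called higher in KLS cells and 0 lower. In these bulk samples, fewer cells of a type and less RNA per cell cannot be told apart. Hmga2 read 7.35 and 7.11 on the TG KLS arrays, against 6.85 and 7.12 on the WT KLS arrays, and these overlapped. It read 6.95 and 6.99 on the TG MEP arrays, against 6.70 and 6.74 on the WT MEP arrays, and these did not. The sources used here do not say where its probes lie relative to the part kept in the transgene, so this checks the label only in part.

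The members were steady over the 8 arrays. Their SD had a median of 0.139 log2 units (0.180 in the cap and 0.113 in the core), against 0.176 over all genes and 0.193 over the brightest 30%. None of the 35 spanned more than 1 log2 unit from its lowest to its highest array, which 10.4% of all genes and 12.7% of the bright genes did. The widest span was 0.98, in Psmd5, and the narrowest 0.15, in Psma4, an alpha subunit that read between 10.51 and 10.66 on every array. The cap median was close to that of all genes and the core median below it.

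**Figure D1:**
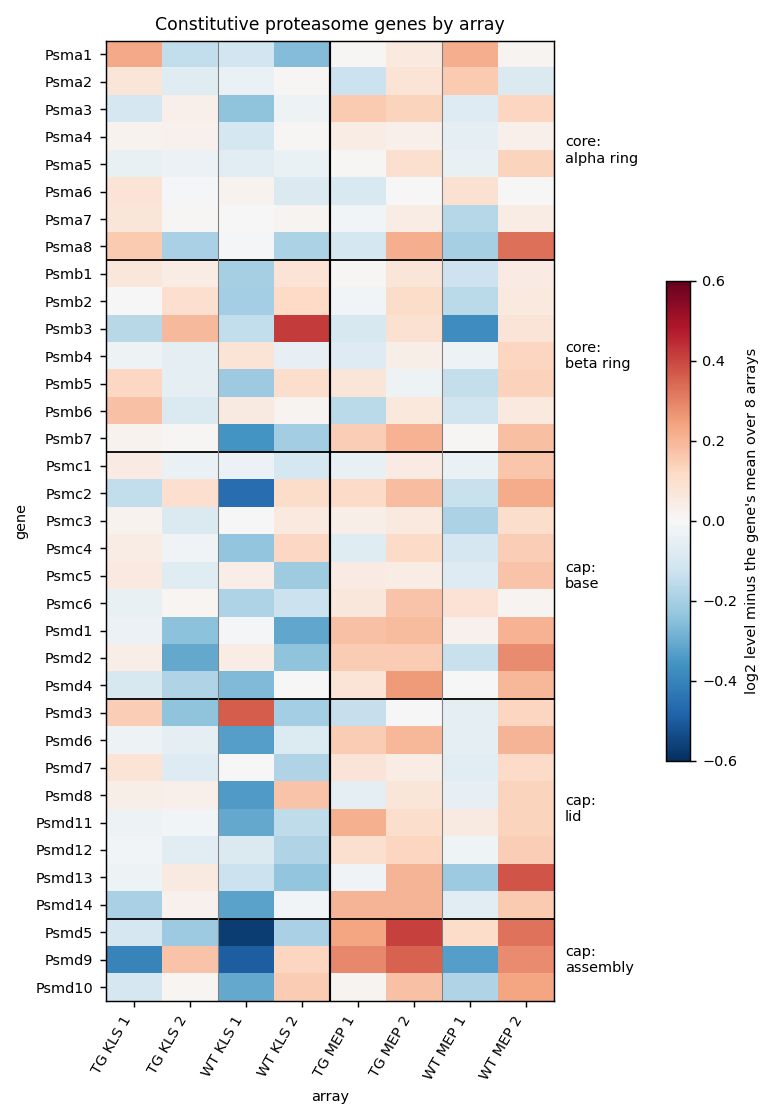
Heat map of the 35 members (rows, by particle) on the 8 arrays (columns), coloured by log2 level minus the gene's own mean over the arrays. Cap genes are mostly below their means on KLS arrays and above them on MEP arrays other than WT MEP 1, and core genes show less of this; on WT KLS 1, 28 of the 35 members lie below their means.

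The first comparison asked whether proteasome mRNA differs between KLS and MEP cells, over both genotypes. Cap genes measured lower in KLS than in MEP cells almost throughout, by a median of -0.17 log2 units with 19 of 20 differences below 0, while core genes had a median of -0.02 with 11 of 15 below 0. None of the 35 members passed limma's test across all genes at an adjusted p under 0.05, which 319 genes did (1.60%). The gene nearest to the threshold was the cap assembly chaperone Psmd5. The members' median log2 level on an array varied within groups by a pooled SD of 0.149 in the cap and 0.130 in the core. This is a spread of levels, and not the error of the median differences above. As deviations from each gene's own mean, the cap median ran from -0.21 to -0.03 on KLS arrays and from -0.06 to 0.17 on MEP arrays. The core median ran from -0.10 to 0.07 on KLS arrays and from -0.08 to 0.07 on MEP arrays. Of all genes, 46.5% were below 0, with a median of 0.01, and of the brightest 30%, 58.2%, with a median of -0.04.

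Among the cap subgroups, all 9 base genes, 7 of 8 lid genes and all 3 assembly factors were below 0. The medians were -0.17 for the base, -0.17 for the lid and -0.30 for the assembly factors, and the cap median without the assembly factors was also -0.17. Psmd3, a structural lid subunit, was the exception at 0.03. In the core, the alpha ring had a median of -0.06 and the beta ring of -0.001, and leaving out Psma8 kept the core median at -0.02. The beta subunit Psmb3, for which the genomic copy read by the probe set is not known, had the highest difference of any member, 0.15, and Psmb7 the lowest of the core. The cap values below 0 were thus spread over base, lid and assembly genes. Under median centring the cap median was -0.26 and the core median -0.09, and the core median ran from -0.07 to 0.01 with each array left out, so the sign of the core was not settled.

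**Figure D2:**
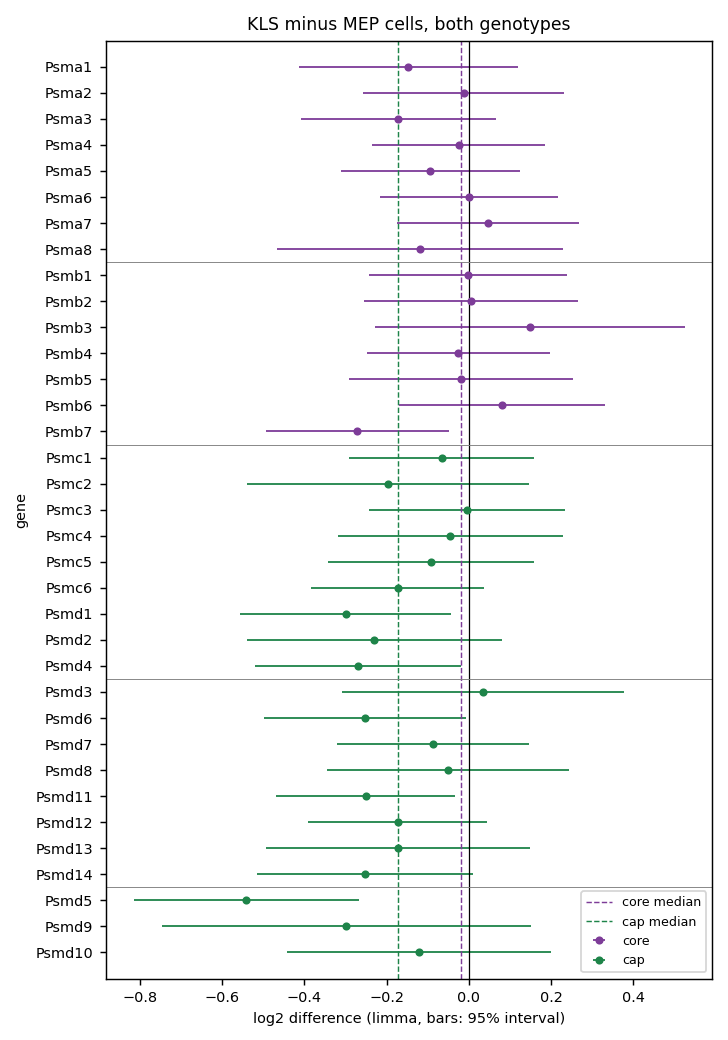
KLS minus MEP log2 differences of the 35 members over both genotypes (limma), with 95% intervals and dashed lines at the cap and core medians. Cap genes lie left of 0 except Psmd3, all but 6 intervals cross 0, and Psmd5 is farthest left at -0.54.

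The cap and core were also set against each other within each array, which cancels a shift of equal size in all members. A shared shift of unlike size in cap and core remains. On WT KLS 1 the mean deviation was -0.181 in the cap and -0.103 in the core, and on WT MEP 2 it was 0.189 and 0.086. The mean cap deviation minus the mean core deviation was -0.083 and -0.044 on the TG KLS arrays and -0.078 and -0.069 on the WT KLS arrays. It was 0.098 and 0.075 on the TG MEP arrays, and -0.003 and 0.103 on the WT MEP arrays. All 4 KLS arrays were below all 4 MEP arrays, with means of -0.068 ± 0.017 (SD, n = 4) for KLS and 0.068 ± 0.049 (SD, n = 4) for MEP arrays. Without the assembly factors, the KLS arrays ran from -0.087 to -0.029 and the MEP arrays from 0.008 to 0.087. Since each gene was centred on its mean over the 8 arrays, the KLS and MEP means are equal in size and opposite in sign by construction, and only the separation of the arrays is a measurement. The lowest MEP value on both scales was that of WT MEP 1. The mean cap deviation by itself did not separate the cell types. On WT MEP 1 it was -0.072, below the -0.038 and -0.061 of the TG KLS arrays. The WT KLS arrays, at -0.181 and -0.075, were lower still.

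Psmd5 (probe set 10481920), the chaperone that holds base ATPases such as Psmc2 during assembly, read 8.89 and 8.78 in TG KLS cells and 8.42 and 8.80 in WT KLS cells. It read 9.23 and 9.41 in TG MEP cells and 9.10 and 9.32 in WT MEP cells. Every KLS array was below every MEP array, with means of 8.72 ± 0.21 and 9.27 ± 0.13 (SD, n = 4 each). The difference was -0.54 ± 0.12 (SE; 95% interval -0.82 to -0.27), or 1.46-fold lower in KLS cells, with an adjusted p of 0.0650 (limma, two-sided). It was -0.48 between TG arrays and -0.60 between WT arrays.

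Psmd1 (10348004), the base scaffold, read 10.87 and 10.66 in TG KLS cells, 10.90 and 10.60 in WT KLS cells, against 11.08 and 11.10 in TG MEP cells and 10.93 and 11.12 in WT MEP cells. The cell types did not overlap, although WT KLS 1 and WT MEP 1 nearly met, and the difference was -0.30 ± 0.11 (SE; adjusted p = 0.260). Psmd4 (10500054), the ubiquitin receptor of the base, read 9.34 and 9.26 in TG KLS cells, 9.18 and 9.44 in WT KLS cells, against 9.52 and 9.70 in TG MEP cells and 9.44 and 9.64 in WT MEP cells. Its highest KLS array, WT KLS 2, all but met its lowest MEP array, WT MEP 1, and the difference was -0.27 ± 0.11 (SE; adjusted p = 0.304). Psmc6 (10414288), 1 of the base ATPases, read 10.43 and 10.48 in TG KLS cells, 10.29 and 10.34 in WT KLS cells, against 10.54 and 10.64 in TG MEP cells and 10.56 and 10.49 in WT MEP cells. Its cell types did not overlap, and the difference was -0.17 ± 0.09 (SE; adjusted p = 0.474).

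In the lid, Psmd11 (10379467), a scaffold subunit, read 9.66 and 9.67 in TG KLS cells, 9.38 and 9.54 in WT KLS cells, against 9.90 and 9.79 in TG MEP cells and 9.74 and 9.82 in WT MEP cells. The cell types did not overlap, and the difference was -0.25 ± 0.10 (SE; adjusted p = 0.265). Psmd14 (10472300), which removes ubiquitin chains from substrates, read 10.86 and 11.08 in TG KLS cells, 10.74 and 11.04 in WT KLS cells, against 11.27 and 11.26 in TG MEP cells and 11.00 and 11.22 in WT MEP cells. WT MEP 1 lay among the KLS values, and the difference was -0.25 ± 0.12 (SE; adjusted p = 0.374). Psmd6 (10417689), another structural lid subunit, read 11.29 and 11.27 in TG KLS cells, 10.99 and 11.24 in WT KLS cells, against 11.48 and 11.53 in TG MEP cells and 11.27 and 11.53 in WT MEP cells. Here too WT MEP 1 reached the KLS range, and the difference was -0.25 ± 0.11 (SE; adjusted p = 0.333).

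Of the core genes, only Psmb7 (10482229) was among the 8 members with the smallest p between cell types. It encodes the subunit with trypsin-like activity and read 11.12 and 11.10 in TG KLS cells, 10.74 and 10.89 in WT KLS cells, against 11.25 and 11.31 in TG MEP cells and 11.10 and 11.28 in WT MEP cells. The TG KLS arrays and WT MEP 1 overlapped, and the difference was -0.27 ± 0.10 (SE; 95% interval -0.49 to -0.05; adjusted p = 0.235). The other catalytic subunits were level: Psmb5, the chymotrypsin-like subunit (10419810), differed by -0.02 and Psmb6, the caspase-like subunit (10377851), by 0.08. Psmb5 read 10.63 and 10.45 in TG KLS cells, 10.29 and 10.61 in WT KLS cells, against 10.58 and 10.48 in TG MEP cells and 10.36 and 10.64 in WT MEP cells. Psmb6 read 10.89 and 10.63 in TG KLS cells, 10.77 and 10.73 in WT KLS cells, against 10.55 and 10.78 in TG MEP cells and 10.60 and 10.77 in WT MEP cells. All groups of both genes overlapped.

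**Figure D3:**
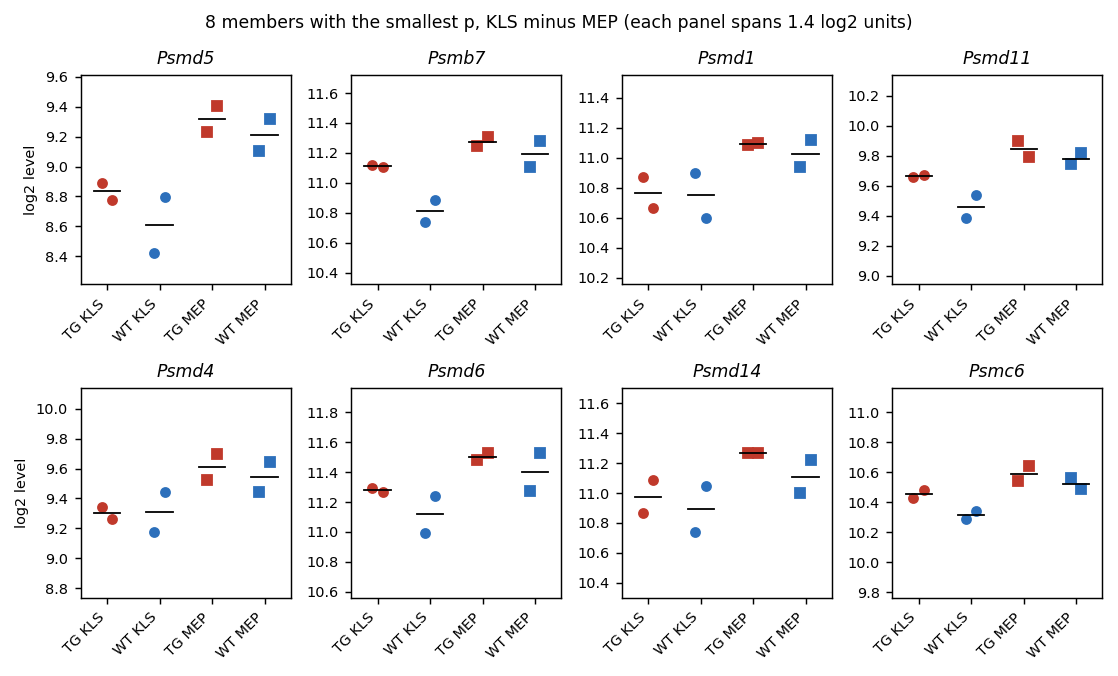
Log2 level on each array of the 8 members with the smallest p between cell types, by group, each gene on its own axis (points: arrays, lines: means of 2). Psmc6, Psmd1, Psmd4, Psmd5 and Psmd11 have every KLS array below every MEP array.

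Counted over all members, 5 had every KLS array below every MEP array, all of them cap genes (Psmc6, Psmd1, Psmd4, Psmd5 and Psmd11), against 4.63% of all genes and 11.2% of the brightest 30%. The count is near what bright genes gave. None of the 35 had every KLS array above every MEP array, against 4.41% of all genes. At an unadjusted p under 0.05, 6 members were lower in KLS cells, against 6.24% of all genes and 14.5% of bright genes. The 95% intervals of all 35 differences lay within 1 log2 unit of 0, and those of 33 within 1.5-fold.

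The cell types were then compared within each genotype, on 2 arrays against 2 of the same 8. Between TG arrays, the cap median was -0.15, with 17 of 20 below 0 (50.4% of all genes and 54.6% of bright genes were), and the core median 0.01. Every TG KLS array was below every TG MEP array for 13 cap and 4 core genes, against 20.7% of all genes and 30.8% of bright genes. Between WT arrays, the cap median was -0.18, with 18 of 20 below 0 (44.8% of all genes and 60.3% of bright genes), and the core median -0.05. With each array left out, the core median ran from -0.063 to 0.049 between TG arrays and from -0.11 to 0.049 between WT arrays, so neither sign was settled. With all WT arrays kept, 7 cap and 2 core genes did not overlap between WT cell types with KLS lower, against 16.0% of all genes and 26.5% of bright genes. In neither genotype did a member pass the test, where 27 genes (0.135%) passed between TG arrays and 1 gene (0.00502%) between WT arrays.

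The cell cycle list (9 of 10 genes measured) was also lower on KLS arrays, at 9.60 to 9.71 against 9.90 to 10.01 on MEP arrays. Its median KLS minus MEP difference was -0.30, with 0 genes called. It did not follow the cap on every array. On WT MEP 1 its mean of 9.90 was above every KLS array, while the mean cap deviation of -0.072 was below both TG KLS arrays. The part of this list in the cap values was not tested.

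The second comparison asked what the ∆Hmga2 genotype does to these genes in KLS cells. No member changed by the test, and no gene of the 19938 did (0.00%). At an unadjusted p under 0.05 there were 0 members and 500 genes (2.51%). Values ran slightly to the TG side: the cap median was 0.08 and the core median 0.07, against -0.02 over all genes and 0.04 over bright genes. Of the members, 29 of 35 were above 0 (16 cap and 13 core), against 45.8% of all genes and 59.2% of bright genes.

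Psmb7 had the largest TG minus WT difference in KLS cells, 0.30 ± 0.14 (SE; 95% interval -0.02 to 0.61; adjusted p = 1.00), and both its TG arrays were above both WT arrays in the values given above. Psmd11 differed by 0.20 ± 0.14 and Psmd5 by 0.22 ± 0.17 (SE). For Psmd11 the genotypes did not overlap, and for Psmd5 they did, with WT KLS 2 above TG KLS 2. Psma1 (10567072), an alpha subunit, read 11.59 and 11.22 in TG KLS cells, 11.25 and 11.11 in WT KLS cells, against 11.38 and 11.42 in TG MEP cells and 11.59 and 11.38 in WT MEP cells. In KLS cells its TG and WT arrays overlapped, with a difference of 0.23 ± 0.17 (SE). The lowest difference was that of Psmd3, -0.13. Both TG arrays were above both WT arrays for 7 members (Psmc6, Psmd6, Psmd11, Psmd12, Psmd13, Psma4 and Psmb7), against 11.7% of all genes and 16.3% of bright genes, and below them for 0, against 17.2% and 8.58%.

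The TG side in KLS cells depended in part on 1 array. On WT KLS 1, 28 of 35 members lay below their own means, and without that array 21 members were above 0 in place of 29. The core median was then 0.0078 in place of 0.07, and it was 0.021 without TG KLS 1 and 0.13 without WT KLS 2. The cap median was lowest, at 0.07, with WT KLS 1 left out and highest, at 0.15, with WT KLS 2 left out. Median centring gave medians of 0.17 in the cap and 0.13 in the core. The 95% intervals of all 35 lay within 1 log2 unit of 0 and those of 27 within 1.5-fold.

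In MEP cells the same comparison again called 0 members and 0 genes (0.00%), with 0 members and 739 genes (3.71%) at an unadjusted p under 0.05. The cap median was 0.07 and the core median 0.02, against -0.01 over all genes, and 24 of 35 members were above 0, against 48.0% of all genes and 47.6% of bright genes. This direction depended on the scaling and on WT MEP 1. Of the 35 members, 17 were above 0 in the values as deposited, 10 after median centring and 8 without WT MEP 1. It held without each other MEP array, with 28 above 0 without TG MEP 1, 21 without TG MEP 2 and 31 without WT MEP 2. The replicates differed by more than these medians: 31 of 35 members read higher on WT MEP 2 than on WT MEP 1, by a median of 0.21, where 62.3% of all genes did.

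Psmd9 (10525506), an assembly chaperone of the base, had the largest difference in MEP cells, 0.34 ± 0.28 (SE; 95% interval -0.29 to 0.98). It read 8.18 and 8.76 in TG KLS cells, 8.09 and 8.71 in WT KLS cells, against 8.87 and 8.94 in TG MEP cells and 8.26 and 8.87 in WT MEP cells. Its replicates in 3 of the 4 groups were 0.57 to 0.62 apart, wider than the genotype difference. Psmd14 differed by 0.16 ± 0.16 (SE), with both TG MEP arrays above both WT MEP arrays. Psma3 (10543783), an alpha subunit, read 12.17 and 12.30 in TG KLS cells, 12.03 and 12.24 in WT KLS cells, against 12.42 and 12.40 in TG MEP cells and 12.19 and 12.40 in WT MEP cells. In MEP cells it differed by 0.12 ± 0.15 (SE), nearly all of it from WT MEP 1. Psma6 (10395816), also an alpha subunit, read 12.12 and 12.03 in TG KLS cells, 12.06 and 11.96 in WT KLS cells, against 11.95 and 12.05 in TG MEP cells and 12.14 and 12.04 in WT MEP cells. It differed by -0.09 ± 0.13 (SE) in MEP cells, and its groups overlapped. Both TG arrays were above both WT arrays for 3 members (Psma3, Psmd9 and Psmd14), against 13.0% of all genes and 12.1% of bright genes, and below them for 0, against 17.2% and 18.2%.

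**Figure D4:**
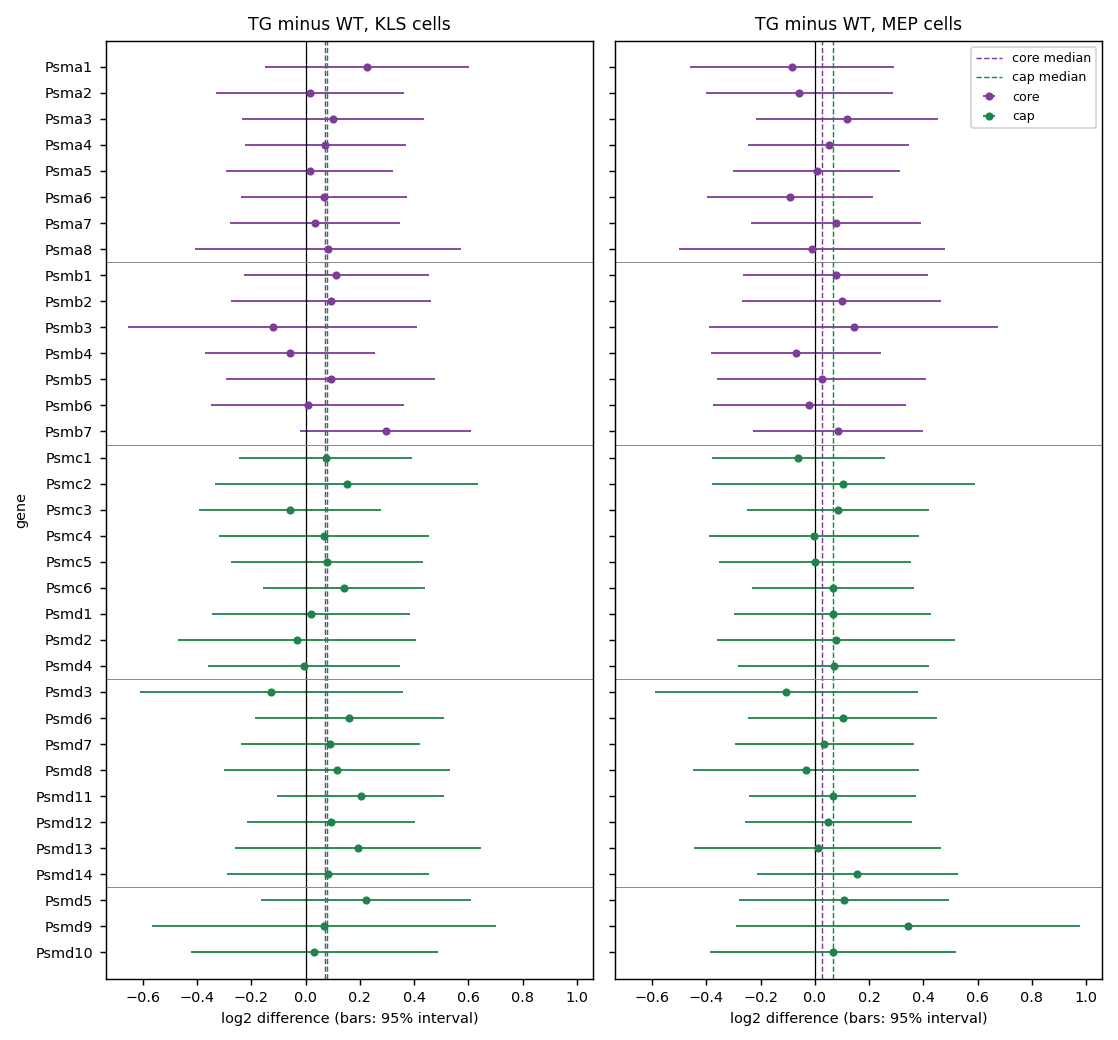
TG minus WT log2 differences of the 35 members in KLS cells (left) and MEP cells (right), from limma, with 95% intervals and dashed lines at the cap and core medians. Every interval crosses 0; the KLS points lie mostly to the right of 0, up to Psmb7 at 0.30.

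Over both cell types, 0 members and 0 genes passed (0.00%), with 0 members and 649 genes (3.26%) at an unadjusted p under 0.05. The cap and core medians were both 0.06, and 30 of 35 members were above 0, against 46.0% of all genes and 53.8% of bright genes. The member with the smallest p was Psmb7, at 0.19 ± 0.10 (SE; 95% interval -0.03 to 0.41; adjusted p = 0.999). Psmd11 at 0.13 ± 0.10, Psmd5 at 0.17 ± 0.12 and Psmd6 at 0.13 ± 0.11 (SE) came next. No member had TG above WT, or below it, on all arrays of both cell types, which 2.08% and 2.89% of genes had.

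The interaction test asked whether the genotype difference itself differs between KLS and MEP cells. It called 0 members and 0 genes (0.00%), with 0 members and 453 genes (2.27%) at an unadjusted p under 0.05. The members with the smallest p were Psma1 at 0.31 ± 0.23 (SE; 95% interval -0.22 to 0.84), Psmb7 at 0.21 ± 0.20 and Psma6 at 0.16 ± 0.19. These intervals are wider than the differences, so a modest difference in response was not detectable with 2 arrays a group.

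The inducible beta subunits, which replace Psmb5, Psmb6 and Psmb7 in the immunoproteasome, were measured beside their constitutive counterparts. Psmb8, the counterpart of Psmb5, read 9.33 and 8.86 in TG KLS cells, 9.21 and 9.07 in WT KLS cells, against 7.65 and 7.92 in TG MEP cells and 8.62 and 7.78 in WT MEP cells. It was higher in KLS cells by 1.13 ± 0.19 (SE; adjusted p = 0.0362). Psmb9, the counterpart of Psmb6, read 10.73 and 10.30 in TG KLS cells, 10.98 and 10.55 in WT KLS cells, against 9.38 and 9.50 in TG MEP cells and 10.22 and 9.35 in WT MEP cells. It was higher in KLS cells by 1.03 ± 0.20 (SE; adjusted p = 0.0477). Both cleared the threshold narrowly, and WT MEP 1 was the highest MEP array for both. Psmb8 passed in 7 of 15 alternative settings (adjusted p from 0.00524 to 0.143) and Psmb9 in 5 of 15 (0.00816 to 0.171). Psmb10, the counterpart of Psmb7, read 8.11 and 7.92 in TG KLS cells, 7.93 and 7.80 in WT KLS cells, against 7.51 and 7.68 in TG MEP cells and 7.55 and 7.59 in WT MEP cells. Its KLS arrays were all above its MEP arrays, at 0.36 ± 0.10 (SE; adjusted p = 0.131). The lymphoid markers (8 of 10 genes measured) averaged 6.81 to 7.18 on KLS arrays and the granulocyte markers (10 of 10) 10.42 to 10.91, and both were also highest on WT MEP 1 among MEP arrays. Their part in these values was not tested.

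**Figure D5:**
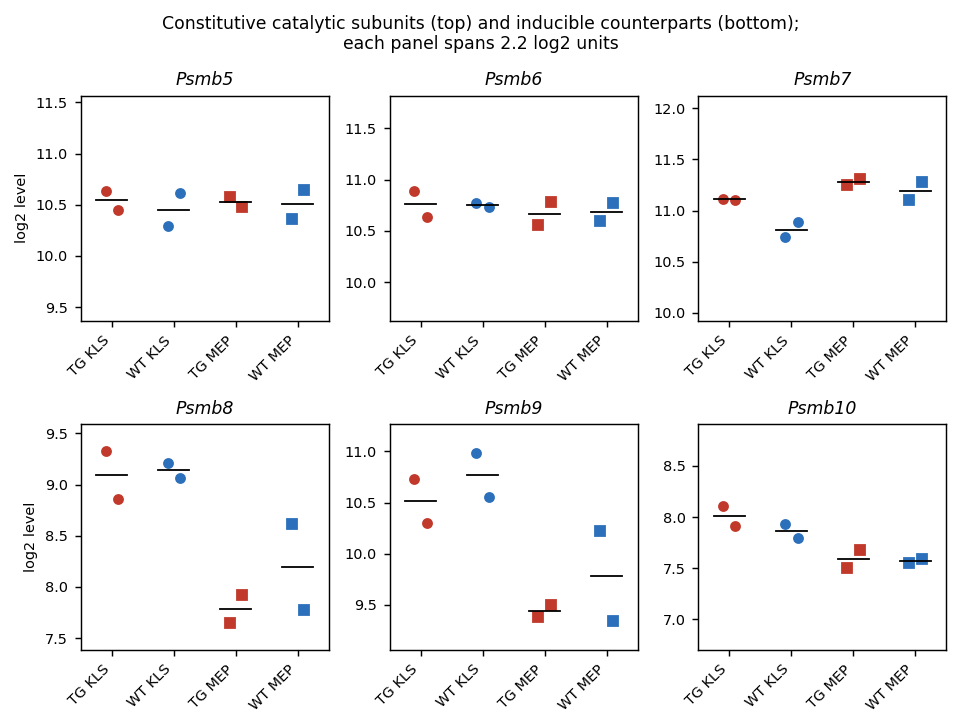
Log2 level on each array of the constitutive catalytic subunits and their inducible counterparts, by group, each gene on its own axis (points: arrays, lines: means of 2). Psmb8, Psmb9 and Psmb10 are higher on KLS than on MEP arrays, while Psmb5 and Psmb6 overlap between cell types.

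Among the other proteasome pathway genes, 29 of 37 listed were measured with the inducible subunits included. Psmb8 and Psmb9 were the only ones called between cell types, against 319 of all 19938 genes (1.60%). None was called by genotype. Of the core assembly chaperones, 4 of 5 were below 0 in KLS minus MEP and Psmg4, which helps build the alpha ring, was at 0.45 ± 0.13 (SE; adjusted p = 0.122). Of the 5 activators and inhibitors, 2 were below 0, among them Psme4, the nuclear activator PA200, at -0.41 ± 0.11 (SE; adjusted p = 0.125). Of the other cap subunits and cap-bound proteins, 6 of 7 were measured and 5 were below 0, with a median of -0.17. The smallest p among them was that of the thioredoxin-like Txnl1, at -0.26 ± 0.09 (SE; adjusted p = 0.218). The gene above 0 was Sem1, itself a cap subunit. It read 11.69 to 11.91 on KLS arrays and 11.61 to 11.75 on MEP arrays, and these overlapped. Of the genes that set proteasome transcription, 3 of 4 were measured and 2 were below 0, with a median of -0.14. Among them was Ngly1, which activates NRF1 by removing its sugars, at -0.28 ± 0.10 (SE; adjusted p = 0.220). The gene above 0 was Nfe2l1, which encodes NRF1 itself. It read 7.74 to 8.52 on KLS arrays and 7.96 to 8.25 on MEP arrays, and these overlapped. Of the ubiquitin, activating enzyme and shuttle genes, 6 of 12 were measured and 5 were below 0. The exception, the shuttle Ubqln2, was at 0.18 ± 0.10 (SE; adjusted p = 0.496).

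Probe sets of 1 gene were compared for the 5 members that had several. Psma3 had KLS minus MEP differences of -0.17, -0.18 and -0.17, Psmc1 of -0.07 and -0.08, and Psmd2 of -0.23 and -0.31, with the probe set used here given first. Those of Psmb3 were 0.15 and 0.22, and those of Psma5, -0.09 and 0.01, which differ in sign. By genotype in KLS cells, the Psmd2 probe sets gave -0.03 and 0.19 and the Psmc1 probe sets 0.07 and -0.03, so these signs depend on the probe set. The annotation does not say which genomic copy a probe set was designed on. The values of Psma3, Psma5, Psmb3, Psmc1 and Psmd2, each with several probe sets for the gene, are uncertain in this respect, the highest difference of Psmb3 included. RefSeq lists pseudogenes of Psma5, Psmb5, Psmb6 and Psmb7, so signal from near-identical copies cannot be told apart for these genes either.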

How the data were processed

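RNA of 8 preparations was hybridised to 1 Affymetrix array each. The authors deposited log2 values of 35556 probe sets per array; the scale was read from the values. Per the submitters' processing notes, the software was Affymetrix Expression Console. The way probes were summarized and arrays normalized was not given in the sources used here. Array medians spanned 0.106, more than the 0.1 allowed, so the arrays were quantile normalized. The platform annotation gave 1 symbol for 21789 probe sets, several for 1621 and none for 12146. Probe sets with 1 symbol were kept and the brightest per gene taken, which left 19938 genes. With no read depth, the number of arrays sets the precision.

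Group means of the 4 groups were fitted over 8 arrays with limma 3.58.1 (R 4.3.3) and tested as contrasts with eBayes (4 residual and 4.82 prior degrees of freedom). Tests were two-sided, with Benjamini-Hochberg adjustment over all genes at 0.05. On simulated data with 19938 genes and 200 changed genes in each of 5 runs, 2-fold changes between cell types were recovered for 80.2% of genes and 4-fold changes for 96.8%. The simulated noise was independent between genes, with no shift shared over an array. Differences as small as those of most members were not simulated. Errors are limma's SE, or SD where stated. A p-value sets a difference against the spread between pooled preparations, with each gene's variance drawn toward that of all genes. The background for bright genes is the brightest 30% by mean level.

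Values on every array are given for the 8 members with the smallest p between cell types, the 4 with the smallest p in each genotype contrast, the 3 with the smallest p in the interaction, and the catalytic subunits. Of other lists, called genes, the gene with the smallest p and the inducible subunits are named. Some further members and list genes are named for their overlap, their direction, their extremes or their probe sets, chosen after their values were seen. The members and lists were chosen with earlier results of these data known. As alternatives, the deposited scale, median centring, the genes without the dimmest 30%, the mean over probe sets, an intensity trend, robust variances, the replicate number as a block, and each array left out were tried. Start regions were taken from RefSeq (GRCm38.p6). Deviations of same-numbered arrays from their group means correlated between -0.284 and 0.385 over pairs of groups.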

Additional observations from a re-analysis of the deposited data

Results flagged for a closer look

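Within each cell type, the 4 arrays of each member, and of the cap and core medians, were searched for 1 array far from the other 3, by the gap to its nearest neighbour over the whole range (Dixon's ratio). Chance marks about 1 in 20 such groups, and 5 of 74 were marked, all by WT arrays numbered 1. In MEP cells WT MEP 1 was low for Psmd9, at 8.26 against 8.87 to 8.94 on the others (ratio 0.897), and for Psma3, at 12.19 against 12.40 to 12.42 (0.88). In KLS cells WT KLS 1 was low for Psma4, at 10.51 against 10.62 to 10.64 (0.851), and for Psmb1, at 10.03 against 10.27 to 10.31 (0.851). It was high for Psmb4, at 12.18 against 12.05 to 12.07 (0.849).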

How the results depend on the processing

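No member was called in any of the 7 comparisons under 14 of 15 alternatives, and Psmd5 between cell types ran from -0.64 to -0.45 with an adjusted p of 0.0485 to 0.216. Its call came with the replicate number as a block, the only setting to call a member (1). The labels do not say what the number marks. Deviations of same-numbered arrays correlated at 0.180 to 0.385 among TG KLS, WT KLS and WT MEP and at -0.284 to -0.173 between each of those and TG MEP, so the numbers were not taken as pairs. With that block, 562 genes were called between cell types in place of 319, 111 between TG arrays in place of 27, 8 between WT arrays in place of 1, and 1 by genotype over both cell types in place of 0. Median centring gave 123 genes between cell types and 1 between TG arrays, robust variances 11 between TG arrays, and median centring moved the WT cap median to -0.35, against -0.18.

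With each array left out, genes called ran from 1 (without TG MEP 1) to 738 (without WT MEP 1) between cell types, 0 to 257 between TG arrays and 1 to 59 between WT arrays. They ran from 0 to 144 by genotype in MEP cells, 0 to 67 over both cell types and 0 to 10 in the interaction, each highest without WT MEP 2. The cap median ran from -0.25 to -0.12 between cell types and, between WT arrays, from -0.32 when WT MEP 1 was left out to -0.031 when WT MEP 2 was. The number of cap genes below 0 between cell types stayed between 17 and 20. By genotype in MEP cells, the core median ran from -0.028 to 0.16 and the cap median from -0.06 to 0.16. Of 1470 values of the 14 named members under alternatives, 104 had the other sign. The members' 95% intervals had a median half-width of 0.35 for 2 arrays against 2 and 0.25 for 4 against 4.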
